A study of Mus musculus with 2 samples.

Results

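A unique molecular identifier (UMI) tags each RNA molecule that is counted in a cell. Inflammatory macrophages that arise from blood monocytes were picked out of the small intestine of 2 mice, chosen by the UMI counts of 12 genes in each cell. A cell barcode was counted as a member when it reached 1000 UMIs and 300 genes, with no more than 50% of the UMIs mitochondrially encoded. It also had at least 1 UMI of Ptprc, the CD45 gene of all leukocytes, at least 2 of Lyz2, the lysozyme gene of myeloid cells, and at least 5 of Fn1, Vcan, Chil3 and Arg1 together. Members had fewer than 5 UMIs of C1qa, C1qb and C1qc, the complement genes of resident macrophages, and at most 1 of the T-cell genes Cd3d, Cd3e and Cd3g. The rule kept 145 of the 12652 barcodes in the files. Of these, 126 of 6270 came from the Tg library and 19 of 6382 from the FMTg library.

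The Tg mouse carried Mdm2+/- and Cag-CreERTg, and the FMTg mouse carried Mdm2FM/- and Cag-CreERTg, so both lacked 1 working Mdm2 allele and both carried the recombinase. CreER is a recombinase that tamoxifen switches on, and the Cag promoter that drives it is active in most tissues rather than in macrophages alone. Both were C57BL/6j mice aged 60 days, injected once with tamoxifen at 6 mg per 40 g, and 24 hours later fresh small intestine went into the 10x Genomics Chromium 3' protocol. Mdm2 encodes the ubiquitin ligase that restrains the transcription factor p53. Each group was 1 mouse and 1 library, so no difference between the libraries had a replicate check and no test was made. All intervals are at 95% and cover counting error only.

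Blood monocytes that express Ly6C and the chemokine receptor CCR2 enter the intestine and turn into macrophages step by step, losing Ly6C and gaining MHC class II and complement genes on the way. During inflammation many stop short of that end state and make chemokines, proteases and matrix proteins. Fn1 encodes fibronectin and Vcan the proteoglycan versican, both matrix proteins that recruited monocytes make. Chil3 encodes the chitinase-like protein Ym1 of newly made monocytes and neutrophils, and Arg1 the arginine-degrading enzyme arginase 1 of activated macrophages. When p53 is released from MDM2 it switches on Cdkn1a, the cell cycle inhibitor p21, and Mdm2 itself.

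Of the genes compared between the libraries, Cdkn1a, Ccng1 and Mdm2 are established p53 targets, and their promoters are shown because their levels carry the comparison. The sequences are those of RefSeq on GRCm38.p6, from 250 bases before to 50 bases after a transcription start, read 5′ to 3′ on the strand of the gene. Capitals mark each match to the p53 response element decamer, a motif of 10 bases that reads the same on both strands. A full element was counted where a pair of decamers lay at most 13 bases apart.
Cdkn1a chr17:29090729-29091028, plus strand: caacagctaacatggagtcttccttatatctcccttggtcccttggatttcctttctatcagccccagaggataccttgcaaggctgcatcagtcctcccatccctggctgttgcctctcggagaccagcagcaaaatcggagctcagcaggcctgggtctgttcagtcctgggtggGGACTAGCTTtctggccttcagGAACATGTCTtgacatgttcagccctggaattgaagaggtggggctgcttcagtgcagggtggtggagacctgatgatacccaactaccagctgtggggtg
Ccng1 chr11:40755237-40755536, minus strand: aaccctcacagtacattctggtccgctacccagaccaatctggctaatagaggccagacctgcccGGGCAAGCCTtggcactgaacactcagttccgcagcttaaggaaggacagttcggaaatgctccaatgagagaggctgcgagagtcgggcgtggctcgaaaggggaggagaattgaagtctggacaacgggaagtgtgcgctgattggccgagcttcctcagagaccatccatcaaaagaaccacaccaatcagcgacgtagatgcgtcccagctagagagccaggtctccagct
Mdm2 chr10:117710709-117711008, minus strand: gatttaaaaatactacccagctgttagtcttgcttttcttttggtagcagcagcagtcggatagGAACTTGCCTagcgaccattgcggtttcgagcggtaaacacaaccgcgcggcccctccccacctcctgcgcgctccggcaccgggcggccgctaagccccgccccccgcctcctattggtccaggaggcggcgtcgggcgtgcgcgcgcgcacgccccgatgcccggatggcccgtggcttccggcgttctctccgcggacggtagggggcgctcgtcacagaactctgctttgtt
The Cdkn1a window held 2 decamers, which start -73 and -51 bases from the transcription start and form 1 full element. The windows of Ccng1 and Mdm2 held 1 decamer each, which start at -185 and -186. Among other p53 targets compared below, the window of Phlda3 held 0 decamers and that of Bax 1. The windows of the Rps27l starts held 0 and 2 decamers, with 0 full elements. Of 32851 promoters of this length, 8.36% held at least 1 decamer and 0.0731% a full element. The same RefSeq table gives Cdkn1a a later start, whose window held 0 decamers. A match describes the letters only.

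The class was rarer in the FMTg library. It made up 2.96% of the 4258 Tg barcodes that passed the UMI, gene and mitochondrial limits (exact Clopper-Pearson interval 2.47 to 3.51) and 0.371% of the 5122 FMTg barcodes (0.223 to 0.579). The Tg share was 7.98-fold higher (4.90 to 13.7). Among leukocytes, barcodes with Ptprc, the shares were 4.84% of 2604 and 0.708% of 2685. The Tg share stayed above the FMTg share under all 11 other ways of choosing the cells, with log2 ratios of FMTg over Tg from -3.17 to -2.70 beside -3.0.

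Other Lyz2-positive cells also had lower shares in FMTg. C1q-high macrophages, Lyz2-positive leukocytes with at least 5 C1q UMIs whatever their sum of the 4 genes, were 57 Tg and 17 FMTg barcodes, or 1.34% and 0.332%. Those that passed neither limit were 29 and 7. B cells, with at least 5 UMIs of Cd79a and Cd79b, were 558 and 702, or 13.1% and 13.7%. Within the Lyz2-positive leukocytes, the class made up 59.4% of 212 cells in Tg (52.5 to 66.1) and 44.2% of 43 in FMTg (29.1 to 60.1). The difference was 1.35-fold, with an interval of 0.827 to 2.31 that includes 1. That interval treats the class as a small part of the total, so it is too wide for shares of this size. With 1 library per group, the genotype and the library cannot be told apart. The class had similar depth in both libraries, with a median of 12307.5 UMIs per cell in Tg and 11245 in FMTg, and median mitochondrial shares of 8.22% and 8.23%. The libraries held 14 barcodes in common, and 0 of them were members.

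**Figure D1:**
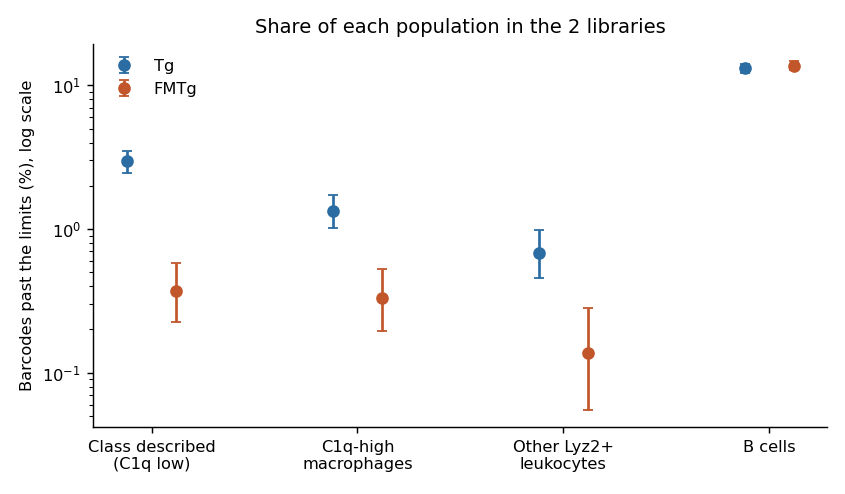
Share of the barcodes past the limits (percent, log axis) for the class, C1q-high macrophages, other Lyz2-positive leukocytes and B cells in the Tg and FMTg libraries; bars are exact 95% binomial intervals. The 3 Lyz2-positive populations lie lower in FMTg, the class at 0.371% beside 2.96%, while B cells lie at 13.7% beside 13.1%.

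The limits cut a nearly empty range. With all other conditions met, 25 Tg cells had no UMI of the 4 genes, 4 had a sum of 1, none had 2 to 4, and 1 had 5. In FMTg 6 cells had none, 1 had 4, and the 2 members nearest the limit had 8 and 9. The FMTg cell just outside held 229 UMIs of S100a8, 413 of S100a9 and 84 of Retnlg, which are neutrophil genes, and 2 of the 4 Tg cells just outside held 262 and 272 of S100a8. More cells lay near the limit on C1q, with 17 Tg and 4 FMTg members at a sum of 1 to 4 and 9 Tg and 0 FMTg cells at 5 to 9. In Tg 40 cells passed the 4-gene limit but had 5 or more C1q UMIs, of the 57 C1q-high cells in all. In FMTg 6 of the 17 did. Within the class the C1q sum was 0 in 109 of 126 Tg and 15 of 19 FMTg cells.

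The label was checked against markers that the rule did not use. All 15 monocyte markers were detected in both libraries. Ly6c2, which encodes the surface protein Ly6C2, was detected in 70 of 126 Tg and in 12 of 19 FMTg cells. Ccr2, the receptor that brings monocytes into tissue, was seen in 109 and 14 cells, and Itgam, the integrin CD11b, in 125 and 19. In B cells, which should lack these 3 genes, their levels were at most 14 CPM (UMIs per 1000000 UMIs of the class), beside 356 to 895 in the class. Plac8, a gene of young monocytes, was seen in 112 and 15 cells, and B cells carried it too, at 823 and 600 CPM. Ccl6, a myeloid chemokine, had a UMI in 125 and 18 cells and a median of 132 and 85 UMIs per cell. C1q-high macrophages had Ccr2 at 742 CPM beside 787 in the class in Tg, and 282 beside 811 in FMTg. Their Ccl6 was at 10834 beside 11943 in Tg and 8260 beside 10671 in FMTg. In Tg, levels of both genes were thus similar in the class and in C1q-high cells.

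Markers of other cells were also present, some across most members and some mainly in single cells. The resident macrophage marker list, which holds the C1q genes and the chemokine Pf4 among its 15, was seen in 119 Tg and 17 FMTg cells, at 2740 and 3455 CPM. The neutrophil list reached 2875 CPM in 89 Tg cells and 1134 in 16 FMTg cells, with S100a8 and S100a9, calprotectin genes that monocytes also express, at 2326 and 398 in Tg and 837 and 15.9 in FMTg. Of the 14 neutrophil markers 9 were detected in each library. Ly6g, Camp and Ngp were at 0 in both, but the 2 Tg cells with neutrophil genes just outside the limit also had 0 Ly6g UMIs. These zeros therefore do not separate members from neutrophils. Of 12 markers of conventional dendritic cells, 9 were detected in Tg, in 119 cells at 348 CPM, and 4 in FMTg, in 17 cells at 297 CPM, beside 202 and 185 CPM in B cells. Xcr1, Clec9a and Zbtb46 were at 0 in both libraries, as were Prg4 and Timd4 of peritoneal macrophages. With 9 of the 12 dendritic cell markers detected in Tg, the first 3 zeros do not show that dendritic cells were absent. At least 5 UMIs of the MHC class II gene H2-Ab1 were found in 8 Tg members and 1 FMTg member. Whether any of these were dendritic cells was not tested. Gata6, the defining transcription factor of peritoneal macrophages, was seen in 11 Tg and 1 FMTg cells. That FMTg cell was the one with most enterocyte RNA. The 9 peritoneal markers together reached 31.1 CPM in Tg and 31.8 in FMTg, beside 52.0 and 51.5 in B cells. Ppbp, a platelet chemokine, had 382 UMIs in 20 Tg cells and 76 in 2 FMTg cells, with Gp9, Gp1bb and Tubb1 at 0. Enterocyte markers were present in all 126 Tg and all 19 FMTg cells and summed to 5158 CPM in Tg and 5632 in FMTg, beside 14498 and 9676 in B cells of the same libraries. In FMTg 1 cell held 78.6% of them, and in Tg 1 cell held 82.0% of the goblet, Paneth, tuft and endocrine cell markers. Of the FMTg UMIs of the 7 B-cell markers, 97.4% were in 1 cell. Lists for eosinophils, mast cells, plasmacytoid dendritic cells, T and NK cells, plasma cells, red blood cells, fibroblasts and endothelial cells reached at most 408 CPM each, the highest being plasma cells, beside 5841 and 6120 for that list in B cells. The part of such RNA in the results below was not tested beyond the values given without these cells. The scrublet method marked 21 Tg and 4 FMTg members as doublets.

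Of the genes behind the word inflammatory, a few were checked cell by cell. Ccl2, which draws CCR2-bearing monocytes, was seen in 107 of 126 Tg and 15 of 19 FMTg cells, and Cxcl2, which draws neutrophils, in 79 and 10. Il1b, the interleukin 1 beta gene, was seen in 14 and 2 cells, Tnf in 9 and 1, Il6 in 6 and 1, and Nos2, the inducible nitric oxide synthase, in 1 and 1. Il12b was at 0 in both. Most members thus had no UMI of Il1b, Tnf, Il6 or Nos2, whereas Ccl2 was seen in most.

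The 4 genes of the rule varied widely from cell to cell. Fn1 ranged from 0 to 238 UMIs per Tg cell with a median of 43, and from 0 to 93 with a median of 22 in FMTg. Vcan ranged from 0 to 44 (median 8) in Tg and from 0 to 30 (median 11) in FMTg. Chil3 ranged from 0 to 193 (median 17) and from 0 to 215 (median 18). Arg1 ranged from 0 to 198 (median 14) and from 0 to 92 (median 2). Every one of these ranges overlapped between the libraries. All 4 genes were present in 73 of 126 Tg and 7 of 19 FMTg cells, and Fn1 was the most abundant of them in 73 Tg and 8 FMTg cells.

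**Figure D2:**
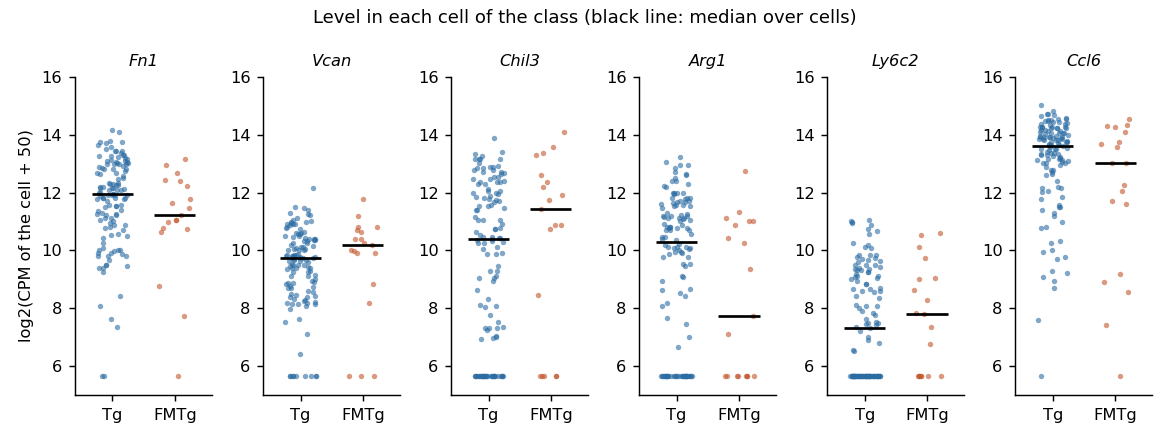
Level in each cell of the class for Fn1, Vcan, Chil3, Arg1, Ly6c2 and Ccl6, as log2(CPM + 50), where points are the 126 Tg and 19 FMTg cells and black lines their medians. The libraries overlap for every gene, and Chil3, Arg1 and Ly6c2 spread from 0 upward. Ccl6 reaches 5 UMIs in 122 of 126 Tg and 15 of 19 FMTg cells.

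Inside the class Chil3 and Arg1 went with different genes. Among 499 genes ranked by Spearman's rho with each rule gene over the 126 Tg cells, Chil3 went most closely with S100a8 (0.69), Lcn2, the iron-binding lipocalin (0.63), Ly6c2 (0.57) and Hp, the haptoglobin gene (0.55). Arg1 went most closely with the chemokines Ccl6 (0.60), Ccl9 (0.59) and Pf4 (0.57) and with the lysosomal proteases Ctsl and Ctsd (0.54 each) and Lgmn (0.53). Fn1 went with Ccl6 (0.64), the antioxidant enzyme gene Gpx1 (0.64) and the tetraspanin Cd9 (0.58), and against Ly6c2 (-0.53). Fn1 and Arg1 had a rho of 0.44, Vcan and Chil3 one of 0.47, Fn1 and Chil3 one of -0.31, and Arg1 and Chil3 one of -0.11. These values share the cells' depth and are descriptions. The rho with a cell's total UMIs was 0.00 for Arg1, 0.07 for Chil3, 0.10 for Vcan and -0.25 for Fn1.

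A split by which of Chil3 and Arg1 was higher, made after the values had been seen, gave 58 and 55 Tg cells and 10 and 7 FMTg cells. In Tg, the Arg1 side had lower S100a9, at 18.9 CPM beside 852 (log2 ratio -5.49), Lcn2, at 62.5 beside 608 (-3.28), and Plac8, at 516 beside 1432 (-1.47). It had more Mrc1, the mannose receptor, at 230 CPM beside 36.9 (2.64), Folr2, a folate receptor of tissue macrophages, at 106 beside 22.7 (2.23), and Cd36, a lipid scavenger receptor, at 417 beside 126 (1.73). Goblet cell genes differed more between these sides of the Tg class, with Fcgbp at 4.64, Muc2 at 4.1, Tff3 at 3.7 and Zg16 at 2.88, and so did the MHC class II invariant chain Cd74, at 2.51. As given above, 1 Tg cell held 82.0% of the goblet, Paneth, tuft and endocrine marker UMIs, and the part of such RNA in this split was not tested. In FMTg the ratio was -2.99 for Lcn2 (-3.87 to -2.22), 3.8 for Cd36 (1.07 to 9.21), 1.69 for Mrc1 (-0.80 to 5.03), 0.10 for Folr2 (-3.68 to 3.89) and -0.33 for Plac8 (-0.71 to 0.05). Pf4 was higher on the Arg1 side in Tg by 1.91, and its FMTg value was -0.08 (-0.37 to 0.21).

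**Figure D3:**
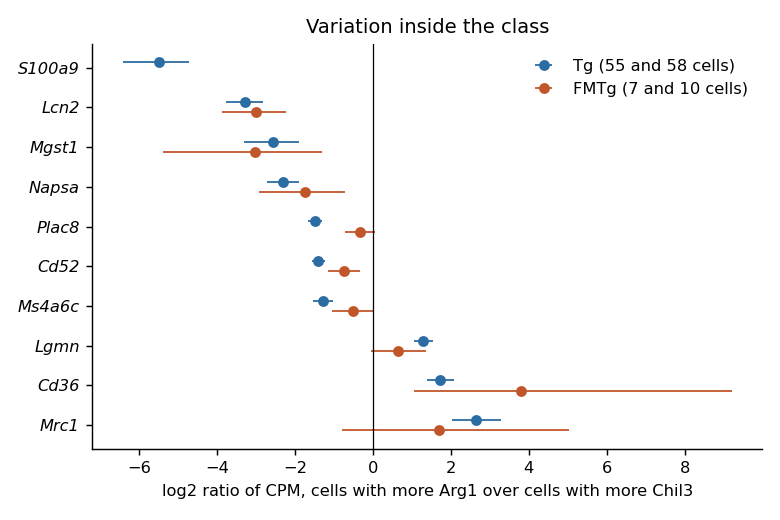
Log2 ratio of CPM between cells with more Arg1 and cells with more Chil3, in Tg (55 and 58 cells) and FMTg (7 and 10 cells); bars are 95% counting intervals, and S100a9 has no FMTg point because it had 0 UMIs on the Arg1 side. Lcn2 is low on the Arg1 side in both libraries, at -3.28 and -2.99.

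Compared with C1q-high macrophages of the same library, members had less Apoe, the apolipoprotein E gene, at 143 CPM beside 2748 in Tg and 673 beside 10978 in FMTg. Acp5, a lysosomal phosphatase, stood at 11 beside 234 in Tg and 5.30, a single UMI, beside 614 in FMTg. The MHC class II gene H2-Aa was lower in members by a log2 ratio of -2.01 in Tg and -2.0 in FMTg, where 1 cell, which also held 18 of 19 Cd79a UMIs, held 53 of the 60 H2-Aa UMIs of the members. Ly6c2 had a log2 ratio of 0.04 (-0.19 to 0.27) in Tg and 3.0 (1.94 to 4.26) in FMTg, since the FMTg C1q-high cells held 49.1 CPM beside 347 in Tg. Since C1q chose the members, these values are descriptions.

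Between the libraries, UMIs were summed over the members and scaled to the class totals of 1545786 in Tg and 188739 in FMTg. Of 4435 genes with at least 50 UMIs, 375 were higher in FMTg by 1.5-fold or more (8.46%) and 780 lower by as much (17.6%). With TMM scaling the counts were 495 and 662. With DESeq2 size factors they were 510 and 661. The median log2 ratio was -0.08 over 6971 genes with at least 20 UMIs. Of those 13.3% were higher and 22.7% lower by 1.5-fold or more, the shares to set beside each list count below. With 19 cells, 1 cell can set an FMTg value. Ratios were therefore also computed after the cell with most UMIs of that gene was left out of each library, called without the top cells, which lowers FMTg more than Tg and moves the all-gene median to -0.39. The shares of the 4435 genes then become 3.56% higher and 33.2% lower.

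Several p53 target genes were higher in FMTg members, Cdkn1a, Ccng1 and Mdm2 among them. Of 48 listed targets 25 had at least 20 UMIs, and 9 of those were higher and 2 lower by 1.5-fold or more, beside 13.3% and 22.7% of all genes with that many UMIs. Their median log2 ratio was 0.39, beside -0.08 over all genes, and ran from 0.06 to 0.50 over 17 other settings. Without the top cells the median was 0.20, beside an all-gene median of -0.39. Then 9 were higher and 6 lower, beside 6.5% and 40.8% of all genes. At 50 UMIs with all cells, 15 targets were measured, 3 higher and 1 lower, beside 8.46% and 17.6% of all genes.

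For Cdkn1a, the earlier start has the full element and the later one does not, and which start the RNA came from was not tested. Cdkn1a ranged from 0 to 44 UMIs per Tg cell with a median of 2, and from 0 to 28 with a median of 6 in FMTg. It had 5 or more UMIs in 30 of 126 Tg cells (23.8%) and 11 of 19 FMTg cells (57.9%). Summed, it stood at 303 and 705 CPM, which gives a log2 ratio of 1.22 (0.93 to 1.5), and 1.10 without the top cells. Thinned to 2000 UMIs per cell, 31.7% of Tg (23.7 to 40.6) and 63.2% of FMTg members (38.4 to 83.7) had a Cdkn1a UMI, beside 81.7% and 89.5% unthinned. B cells, thinned alike, gave 8.97% and 12.3%. The FMTg cell with most Cdkn1a, 28 of 133 UMIs, was the cell that held most enterocyte RNA. With all cells over 2% of epithelial marker UMIs removed, an alternative chosen after seeing the data, the ratio was 1.02.

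Ccng1, the cyclin G1 gene, ranged from 0 to 13 UMIs per Tg cell and from 0 to 10 per FMTg cell, with a median of 1 in both, and reached 5 UMIs in 1 Tg and 4 FMTg cells. It had 113 UMIs in 65 Tg cells and 44 in 12 FMTg cells, at 73.1 and 233 CPM. Its log2 ratio was 1.67 (1.14 to 2.19), and 1.55 without the top cells. Mdm2 ranged from 0 to 24 and from 0 to 10 UMIs, also with a median of 1, and reached 5 UMIs in 10 Tg cells (7.94%) and 5 FMTg cells (26.3%). It had 228 UMIs in 90 Tg and 50 in 14 FMTg cells, at 147 and 265 CPM, a ratio of 0.84 (0.37 to 1.29) and 0.78 without the top cells. Since p53 drives Mdm2 and the 3' assay reads only the end of its transcripts, this level does not check the genotype. The libraries overlapped cell by cell for all 3 genes. Over 16 other settings, Cdkn1a stayed between 0.97 and 1.54, Ccng1 between 1.35 and 1.96 and Mdm2 between 0.69 and 1.02.

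Phlda3, an inhibitor of AKT signalling and a p53 target, was named after its values were seen, with 13 UMIs in 8 Tg cells and 19 in 5 FMTg cells (log2 ratio 3.58, 2.49 to 4.72). Bax, the pore-forming apoptosis gene, had 560 and 78 UMIs and a ratio of 0.19 (-0.17 to 0.53), and the ribosomal protein gene Rps27l one of 0.39 (0.13 to 0.64). Fas, the death receptor gene, had 50 and 4 UMIs, a ratio of -0.61 (-2.54 to 0.84). Trp53, the p53 gene, had 59 and 12 UMIs, a ratio of 0.74 (-0.30 to 1.65). Mdm4, the MDM2 partner that also restrains p53, had 45 and 18 UMIs, a ratio of 1.71 (0.84 to 2.53). The deubiquitinase Usp7 had 151 and 10, a ratio of -0.88 (-1.97 to 0.04). The list of p53 and its regulators, to which Trp53, Mdm4 and Usp7 belong, had a median of 0.74 over 5 measured genes. Without the top cells it was 0.24. With all cells 3 of the 5 were higher and 2 lower, beside 13.3% and 22.7% of all genes. Phlda3 without the top cells was at 3.65, Bax at 0.07, Rps27l at 0.29, Fas at -0.91, Trp53 at 0.24, Mdm4 at 1.31 and Usp7 at -1.48.

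High p53 target RNA was also found in a Tg cell. Of its 4303 UMIs, 20 were Cdkn1a, 24 Mdm2 and 4 Ccng1. In C1q-high macrophages the FMTg over Tg ratios were 0.42 for Cdkn1a, 0.35 for Mdm2 and -0.08 for Ccng1, and the median over 16 measured targets was 0.30. Whether the class and the C1q-high cells differ in these ratios was not tested.

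**Figure D4:**
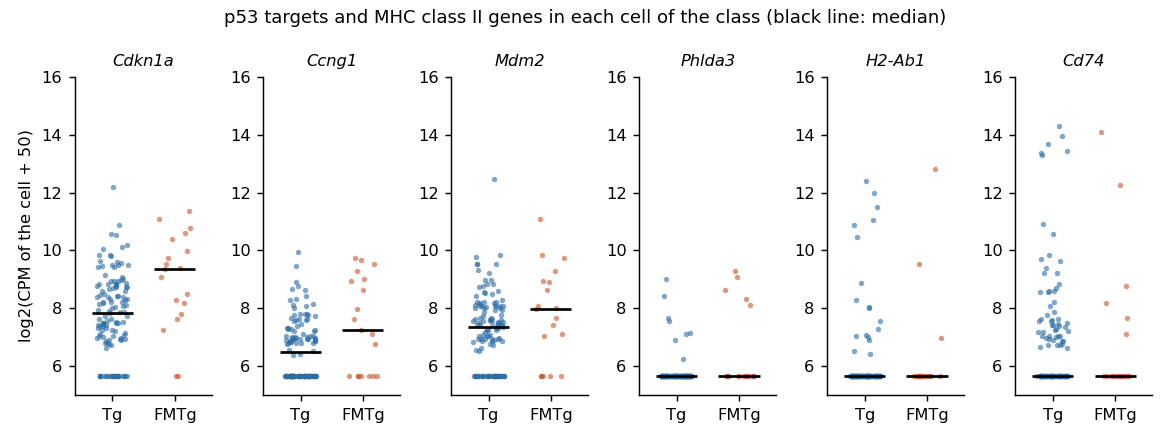
Level in each cell of the class for the p53 targets Cdkn1a, Ccng1, Mdm2 and Phlda3 and the MHC class II genes H2-Ab1 and Cd74, as log2(CPM + 50), with 126 Tg and 19 FMTg cells and black lines at the medians. Cdkn1a is seen in 17 of 19 FMTg and 103 of 126 Tg cells, whereas the median of Phlda3 is 0 UMIs in both libraries. H2-Ab1 comes mostly from 1 FMTg cell.

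MHC class II genes, which present antigen to T cells, had a median log2 ratio of 0.65 over 9 measured members of the list. Of these 5 were higher and 1 lower, beside 13.3% and 22.7% of all genes, and that median rested on 1 cell. H2-Ab1 was seen in 18 of 126 Tg and 3 of 19 FMTg cells, at 173 and 498 CPM. A single FMTg cell held 94.7% of the H2-Ab1 UMIs, 88.3% of H2-Aa, 91.7% of H2-Eb1 and 84.8% of Cd74, the invariant chain. The same cell held 18 of the 19 UMIs of the B-cell receptor gene Cd79a. Without the top cells the list's median was -1.42, and without cells that had at least 2 UMIs of Epcam and B-cell genes it was -2.17. In Tg 8 of 126 cells had at least 5 H2-Ab1 UMIs (6.35%, 2.78 to 12.1).

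Genes of the monocyte list were level or higher in FMTg, with a median of 0.18 over all 25 members. At the 1.5-fold limit 6 were higher and 0 lower, beside 13.3% and 22.7% of all genes. All 25 had at least 50 UMIs, and of all genes with that many 8.46% were higher and 17.6% lower. Without the top cells the median was 0.06, with 2 higher and 0 lower. S100a4, a calcium-binding protein gene, was at 684 and 1208 CPM, with a log2 ratio of 0.82 (0.61 to 1.03), and 0.77 without the top cells. F13a1, the coagulation factor XIII A chain, had a ratio of 0.89 (0.56 to 1.21) and 0.71, and Ms4a6c one of 0.65 and 0.54. Ccr2 had a ratio of 0.04 and Ly6c2 one of 0.14 (-0.23 to 0.49). Among the rule genes, given as description, Chil3 had a ratio of 0.66, Vcan 0.27, Lyz2 0.01, Arg1 -0.43 and Fn1 -0.46. Without the top cells they were 0.35, 0.22, -0.18, -0.87 and -0.51 in the same order. Where cells with at least 5 UMIs of S100a8 and S100a9 were removed, Chil3 stood at -0.084, F13a1 at -0.034 and Tgfbi, a secreted matrix protein gene, at -0.15, beside 0.66, 0.89 and 0.78, and S100a4 stood at 0.86.

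S100a9 depended on the limit of the rule. It had 615 UMIs in 25 Tg cells and 3 in 3 FMTg cells, a log2 ratio of -4.65 (-6.93 to -3.09). Cells with at least 5 S100a9 UMIs were 15 of 126 in Tg and 0 of 19 in FMTg, which allows a share of up to 15.8% at 3 counts, with an exact Clopper-Pearson upper end of 17.6%. With the 4-gene limit at 3 UMIs, 1 more FMTg cell, the neutrophil-gene cell described above, entered and the ratio became 2.45. S100a8, its partner, had 3595 and 158 UMIs in 76 and 13 cells, a ratio of -1.47 (-1.71 to -1.24). S100a9 was at -4.86 and S100a8 at -1.67 without the top cells.

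Resident macrophage genes outside C1q were mixed, with a median of -0.13 over 18 measured genes. Of these 4 were higher and 4 lower, beside 13.3% and 22.7% of all genes. Apoe was at 143 CPM in 39 Tg cells and 673 in 12 FMTg cells, a log2 ratio of 2.23 (1.91 to 2.56), and 1.86 without the top cells, although 38.6% of its FMTg UMIs lay in the cell with B-cell RNA. In C1q-high macrophages the Apoe ratio was 2.0, and in B cells its level was 601 and 821 CPM, above that of the Tg members. Mrc1 had 201 UMIs in 50 Tg and 8 in 4 FMTg cells, a ratio of -1.62 (-2.85 to -0.61), and Folr2 89 and 4 UMIs, a ratio of -1.44 (-3.35 to -0.04). Pattern recognition and phagocytic receptors had a median of -0.06 over 28 genes, 4 higher and 6 lower, and Cd36 among them had 411 UMIs in 60 Tg and 15 in 5 FMTg cells, a ratio of -1.74 (-2.59 to -1.0). Mrc1 was at -2.41, Folr2 at -2.17 and Cd36 at -2.19 without the top cells.

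Cytokine genes and other mediators had a median of 0.12 over 16 measured genes. Of these 5 were higher and 3 lower, beside 13.3% and 22.7% of all genes. Lcn2 had 480 UMIs in 46 Tg cells and 144 in 11 FMTg cells, a log2 ratio of 1.30, and 0.71 without the top cells, since 1 FMTg cell held 41.7%. Casp4, the sensor caspase for cytosolic lipopolysaccharide, had 65 and 17 UMIs, a ratio of 1.10 (0.24 to 1.89) and 1.06. Saa3, an acute-phase serum amyloid gene, had a ratio of -1.69 (-2.62 to -0.90), and Il1b one of -1.66 with 129 and 5 UMIs, 48.8% of the Tg UMIs in 1 cell. Among genes of other lists, Nfkbia, the NF-κB inhibitor and target, was at 490 and 270 CPM, a ratio of -0.86 (-1.30 to -0.45), and Sod2, the mitochondrial superoxide dismutase, at -1.01 (-1.83 to -0.28). Myeloid transcription factor genes had a median of -0.27 over 27 genes. The 2 higher and 5 lower stand beside 13.3% and 22.7% of all genes. Cebpb and Maf had ratios of -0.57 (-0.76 to -0.38) and -0.55 (-0.92 to -0.20). Saa3 without the top cells was at -1.60, Il1b at -2.01, Nfkbia at -0.87, Sod2 at -1.13, Cebpb at -0.76 and Maf at -0.69.

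Chemokines had a median of 0.03 over 14 measured genes and -0.72 without the top cells. Cxcl2 had 1442 and 78 UMIs, a log2 ratio of -1.17 (-1.52 to -0.85) and -1.44 without the top cells. With equal weight per cell it was -0.096, with C1q below 2 UMIs -0.79 and with a 4-gene sum of at least 10 it was -1.80. Ccl6 and Ccl9 had ratios of -0.16 and -0.32. One FMTg cell held 71.9% of Ccl2, 95.1% of Ccl12 and 90.0% of Cxcl10, and the same cell held 75% of Rsad2 and 68.0% of Oasl1, both antiviral interferon-response genes. Ccl2 thus had a ratio of 0.30 with all cells and -1.35 without the top cells, and Ccl12 one of 1.43 and -2.21. Interferon-response genes had a median of 0.29 over 36 measured genes, 12 higher and 2 lower, beside 13.3% and 22.7% of all genes. Without the top cells the median was -0.06, with 7 higher and 8 lower, beside 6.5% and 40.8%. Ifitm3 had a ratio of 0.03, and Gbp7 one of -1.77 (-4.08 to -0.18).

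**Figure D5:**
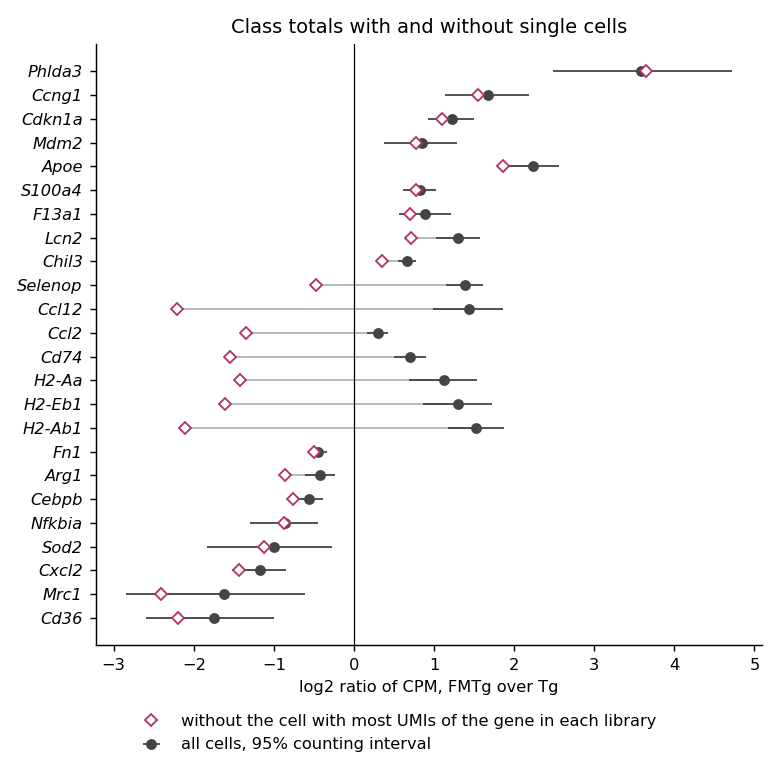
Log2 ratio of CPM, FMTg over Tg, for 24 genes of the class with all cells (filled, 95% counting interval) and without the cell with most UMIs of the gene in each library (open diamonds). Cdkn1a moves from 1.22 to 1.10, and H2-Ab1 crosses 0, from 1.52 to -2.11.

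Metabolic and phagocyte oxidase genes had medians near 0. Over all genes 13.3% were higher and 22.7% lower, shares to set beside the counts in these lists. With at least 50 UMIs the shares were 8.46% and 17.6%. All measured oxidative phosphorylation, NADPH oxidase and mitochondrially encoded genes had that many. Glycolysis and hypoxia genes had a median log2 ratio of -0.09 over 27 measured genes, with Gapdh at -0.03 and Aldoa at 0.01. Nuclear oxidative phosphorylation genes had one of 0.04 over 73 genes, with 2 higher and 4 lower. The 7 genes of the NADPH oxidase, which makes reactive oxygen in phagocytes, had 0 higher and 0 lower, with Cybb at 0.04 and Cyba at 0.01. Lysosome and lipid genes had a median of -0.04 over 29 genes, with Ctsd at -0.50 (-0.70 to -0.30). Immediate early and dissociation stress genes had one of -0.23 over 32 genes, 2 higher and 7 lower, with the heat shock gene Hspa1a at -1.01 (-1.84 to -0.28). The 13 mitochondrially encoded genes had a median of 0.04, with 0 higher and 0 lower.

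The remaining lists are also to be read beside the 13.3% higher and 22.7% lower of all genes. Chemokine, cytokine and growth factor receptors had a median of -0.13 over 24 genes, 3 higher and 3 lower. Alternative activation genes had one of 0.22 over 11, 3 higher and 2 lower, and -0.39 without the top cells. Matrix, adhesion and clotting genes had one of 0.11 over 27, 4 higher and 3 lower. Iron and antioxidant genes had one of -0.07 over 21, 2 higher and 5 lower. Anti-apoptotic genes had one of -0.15 over 10, with 0 higher and 0 lower. Of 30 S phase genes 7 were measured, 0 higher and 1 lower, and of 31 G2 and M phase genes 3 were, 1 higher and 1 lower, with medians of -0.03 and -0.35.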

How the data were processed

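RNA of single cells from the small intestine of 1 Tg and 1 FMTg mouse was counted with the 10x Genomics Chromium 3' assay. The deposited matrices hold unnormalized UMI counts of 31053 genes in each barcode. Reads were processed with CASAVA 1.8.1 and Cell Ranger 3.0 on mm10, per the submitters' processing notes. Which gene annotation was used is not stated. Library totals were 54013005 UMIs in Tg and 49805718 in FMTg.

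Members of the class were chosen by the UMI limits given above. The class and the gene lists were chosen with earlier results of these data known. Doublets were kept, and removed by scrublet (scanpy 1.11.5) in an alternative. UMIs were summed per library and divided by the class total and multiplied by 1000000 (CPM). Ratios of CPM and ratios of shares have exact conditional binomial intervals, and shares exact Clopper-Pearson intervals, at 95%. Both cover counting error only. With 1 library per group there is no residual spread, so no p-value was computed. Genes with at least 50 UMIs over both libraries entered counts at a 1.5-fold limit, and those with at least 20 entered list medians. Numbers of cells with a UMI are unthinned. Only where stated, for Cdkn1a, were shares of cells with a UMI taken after thinning each cell to 2000 UMIs. The ratio code was tested on simulated data.

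Genes were named by a fixed rule. It took the genes of the class rule, Mdm2, Trp53 and Cdkn1a, up to 4 members of each list with most UMIs, up to 4 with the largest ratios, and the 10 highest and 10 lowest ratios of all genes. Phlda3, and the genes named in the comparison within the class and with C1q-high macrophages, were chosen after their values were seen. Of 750 list genes 5 were not analysed here. Promoters were matched by symbol to RefSeq on GRCm38.p6.

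Results were recomputed under 17 other settings. Another 2, removing cells over 2% of epithelial marker UMIs and removing the top cell of each gene, were chosen after seeing the data. TMM factors came from edgeR 4.0.16 and size factors from DESeq2 1.42.0 in R 4.3.3, on the class sums of the deposited counts. Other code ran in Python 3.11.15 with numpy 2.4.6, scipy 1.17.1, pandas 2.3.3 and matplotlib 3.10.9.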

Additional observations from a re-analysis of the deposited data

How the results depend on the processing

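No paired analysis was possible because each group is 1 library, and for the same reason no replicate could be left out. The share of the class was lower in FMTg under all 11 alternatives. Of the gene ratios under alternatives, 901 stayed inside the counting interval of the main value and 95 moved outside it. Another 27, all at least 1.5-fold in the main setting, changed sign. Smaller ratios that crossed 0 are counted among the 901 and 95, such as Ccl2 at 0.30 and, without the top cells, -1.35. The counts of genes at least 1.5-fold higher and lower, 375 and 780, were 2492 and 4931 with no filter on low counts, 138 and 333 with at least 100 UMIs, and 158 and 1471 without the top cells, where the chemokine median was -0.72. Leaving out the top cell takes 1 of 19 FMTg cells and 1 of 126 Tg cells, which lowers FMTg more. Cxcl2 was at -0.10 with equal weight per cell.

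MHC class II genes reversed in 3 settings. With a 4-gene sum of at least 10 the median was -1.53, with H2-Ab1 -2.38, H2-Aa -1.53, H2-Eb1 -1.81 and Cd74 -1.65. Without cells with Epcam or B-cell genes it was -2.17, with -3.09, -2.17, -2.20 and -2.22 in the same order. Without the top cells it was -1.42, with -2.11, -1.42, -1.60 and -1.55, Ccl12 was -2.21 and Selenop, the selenoprotein P gene, was -0.47. Selenop, 1.38 with all cells, was also -0.94 at a mitochondrial limit of 25%, -1.14 with C1q below 2, -0.0058 without cells with Epcam or B-cell genes and -0.12 without epithelial cells. A single FMTg cell held 81.9% of it, and the mitochondrial share of that cell was 32.7%. S100a9 was 2.45 with a 4-gene sum of at least 3, where Il1b was 7.8e-05, and 2.43 with the 4-gene limit set relative to each cell's total. Without cells with S100a8 and S100a9, S100a9 was 0.28, Il1b 0.17, Chil3 -0.084, F13a1 -0.034, Tgfbi -0.15 and Ccl12 -2.16. The cause was not tested beyond the cells named. The FMTg class held 188739 UMIs, and small differences of genes with few UMIs there were not detectable at this depth.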
